A study of Homo sapiens with 2 samples.

Results

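The RNAs described here are structured non-coding RNAs that work as parts of RNA-protein machines: RPPH1, the RNA of ribonuclease P, RMRP, the RNA of ribonuclease MRP, TERC, the RNA of telomerase, and RNA45S5, the precursor of ribosomal RNA. They were chosen by gene symbol from a list of 7, with these values in view, so the direction of that difference is part of the choice and is given as a description. Values were analysed for 4 of the 7, among 23709 gene records in all. The other 3 listed symbols, RN7SK, RN7SL1 and RN7SL2 (the RNAs of the 7SK particle and of the signal recognition particle, SRP), are not analysed here.

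Caco-2 is an established human colorectal adenocarcinoma cell line that forms enterocyte-like layers. There were 2 libraries from cells grown in DMEM with fetal bovine serum and antibiotics, no treatment is named, and both were selected for poly(A) RNA. The RNC-mRNA library holds RNA that came down with ribosome-nascent chain complexes (RNC), that is, ribosomes still carrying a growing protein chain. The mRNA library holds poly(A) RNA selected from total RNA. Each kind of RNA has 1 library, so no difference below has a replicate check, and the labels do not say whether both came from the same culture.

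Ribonuclease P cuts the leader from the start of transfer RNA precursors, and ribonuclease MRP, which shares most of its proteins, takes part in cutting the ribosomal RNA precursor in the nucleolus. Telomerase copies a short template within its own RNA onto chromosome ends. None of these RNAs codes for protein. They are made by different polymerases: RPPH1 and RMRP by RNA polymerase III, TERC by RNA polymerase II and RNA45S5 by RNA polymerase I. The mature forms of these RNAs are not known for long poly(A) tails, and nuclear surveillance adds short A tails to some precursors that are bound for trimming or decay.

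The sequences of 3 of these RNAs are shown because poly(A) selection acts on runs of A, and because the template is what telomerase copies. They come from the transcripts of GENCODE release 29 on GRCh38, read 5′ to 3′. Each is a non-coding gene with a single exon on the minus strand. RPPH1 is an RNA of 333 bases there, of which the first 300, chr14:20343108-20343407, are printed, whereas the deposited value used a record of 341 bases. RMRP is at chr9:35657751-35658018 over 268 bases, the length behind its deposited value. Of TERC the first 300 bases, chr3:169764761-169765060, are printed. The annotated transcript has 541 bases, and the deposited value used 451, so its first 451 bases were compared. In RPPH1 and RMRP, capitals mark the longest runs of A. In TERC, capitals mark the stretch that reads along repeats of TAACCC, the complement of the telomere repeat, at bases 46 to 56. A stretch of 11 bases along this repeat stood in 32 of 63311 annotated transcripts of 200 to 600 bases (0.0505%), and its reverse complement in 8. The last 6 of the 451 bases of TERC hold an ACA box 3 bases before the end, as in H/ACA small nucleolar RNAs.
RPPH1: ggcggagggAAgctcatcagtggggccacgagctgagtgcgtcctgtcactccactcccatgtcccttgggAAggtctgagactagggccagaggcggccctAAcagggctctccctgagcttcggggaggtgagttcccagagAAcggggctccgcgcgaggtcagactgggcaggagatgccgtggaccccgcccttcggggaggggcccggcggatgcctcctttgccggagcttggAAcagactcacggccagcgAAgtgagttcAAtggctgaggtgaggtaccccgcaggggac
RMRP: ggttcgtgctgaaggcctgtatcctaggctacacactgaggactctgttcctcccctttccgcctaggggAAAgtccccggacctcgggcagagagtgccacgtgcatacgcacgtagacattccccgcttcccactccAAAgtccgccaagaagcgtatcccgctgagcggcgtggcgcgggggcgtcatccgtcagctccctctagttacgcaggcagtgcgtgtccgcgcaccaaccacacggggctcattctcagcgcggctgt
TERC: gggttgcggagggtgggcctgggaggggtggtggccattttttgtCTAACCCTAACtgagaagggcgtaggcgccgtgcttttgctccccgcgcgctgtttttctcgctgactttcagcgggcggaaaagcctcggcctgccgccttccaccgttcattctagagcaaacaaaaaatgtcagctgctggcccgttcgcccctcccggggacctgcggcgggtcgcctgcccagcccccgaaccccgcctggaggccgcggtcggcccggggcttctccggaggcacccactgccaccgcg
None of the 3 RNAs ended in A. The longest run of A was 2 bases in RPPH1, 3 in RMRP and 6 in TERC. Among 63311 annotated transcripts of 200 to 600 bases, the median longest run was 4, 2.73% had a longest run no longer than that of RPPH1, 20.9% no longer than that of RMRP, and 19.5% held a run of at least 6. All 3 RNAs were poor in A, with 18.6% in RPPH1, 17.5% in RMRP and 14.4% in TERC, against a median of 26.1% over those transcripts. RPPH1 and RMRP, which are related in function, shared no stretch longer than 9 bases. The longest shared stretch was 10 bases for RPPH1 with TERC and 8 for RMRP with TERC.

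Depth was sufficient for the abundant records and thin for RPPH1 and TERC in the RNC-mRNA library. The totals recovered from the values were 11083302 reads in the RNC-mRNA library and 9640364 in the mRNA library, and the median expressed record rested on at least 280 reads in the RNC-mRNA library and 258 in the mRNA library. Of 8 epithelial and enterocyte markers, 7 had at least 1 RPKM (reads scaled by record length and library total) in both libraries. LGALS4 was the exception. Of 11 markers of immune, endothelial, fibroblast and erythroid cells, 5 had at least 1 RPKM in both libraries. These 11 markers did not exceed 14.97 RPKM, the value of LUM in the RNC-mRNA library. They summed to 26.7 RPKM in the RNC-mRNA library and 24.6 RPKM in the mRNA library. Their part in the results below was not tested.

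All of the 4 RNAs had lower levels in the RNC-mRNA library than in the mRNA library. Ratios are log2((RNC-mRNA + 0.1) / (mRNA + 0.1)) minus the median of the 13402 records with a mean of at least 1 RPKM, called expressed here. All 4 lay at least 2-fold below that median, where 11.8% of all expressed records did. RPPH1 and TERC were under 1 RPKM in the RNC-mRNA library and passed the filter only through the mRNA library. For them the filter therefore largely fixed the direction. The 4 relative ratios ran from -6.004 to -1.59 with a median of -3.42. The choice of these RNAs used these values, so nothing further is read from that count. RPKM is scaled to each library total, and the 2 libraries hold different fractions of RNA. A ratio therefore does not give a difference in RNA per cell. Whether the cells sampled also differed cannot be told from bulk RNA.

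RPPH1 had the lowest relative ratio of the 4. It had 0.529 RPKM in the RNC-mRNA library, from 2 reads, and 41.4 RPKM in the mRNA library, from 136 reads. The level in the RNC-mRNA library was 1.28% of that in the mRNA library. The relative ratio was -6.004, and its exact 95% counting interval (Clopper-Pearson, from the reads) ran from -9.31 to -4.37. At the ratio of the median record, 152 reads would stand in the RNC-mRNA library in place of 2. Of all expressed records, 6 had a lower ratio, all of them non-coding (NR) records. A single read of RPPH1 in the RNC-mRNA library was worth 0.265 RPKM, so its order among the lowest records rests on very few reads.

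RMRP stayed the most abundant of the 4 in both libraries. It had 25.6 RPKM in the RNC-mRNA library, from 76 reads, and 79.3 RPKM in the mRNA library, from 205 reads. Its relative ratio was -1.59 (counting interval -1.99 to -1.21), so that it lay 3.01-fold below the median record. The level in the RNC-mRNA library was 32.2% of that in the mRNA library. This was the mildest difference of the 4, and 5.88% of expressed records had a lower ratio. RPPH1 and RMRP, the RNA subunits of 2 enzymes that share proteins, therefore differed in relative ratio by more than their counting intervals, which did not overlap. That they differ between cultures was not tested, since each library stands alone.

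TERC was the least abundant of the 4 in the mRNA library. It had 0.600 RPKM in the RNC-mRNA library, from 3 reads, and 5.75 RPKM in the mRNA library, from 25 reads. Its relative ratio was -3.02 with a wide counting interval, -5.59 to -1.51. That interval overlapped those of the other 3 RNAs, so the place of TERC in the order was not detectable at this depth. At the ratio of the median record, 27.99 reads would stand in place of 3.

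RNA45S5 was the best measured of the 4. It had 2.64 RPKM in the RNC-mRNA library, from 391 reads, and 39.6 RPKM in the mRNA library, from 5102 reads over a record of 13357 bases. Its relative ratio was -3.82 (counting interval -4.02 to -3.72), or 14.1-fold below the median record. It supplied 82.8% of the 472 reads of the 4 RNAs in the RNC-mRNA library and 93.3% of their 5468 reads in the mRNA library. The record spans the transcribed spacers as well as the mature ribosomal RNAs, and the table does not say where along it the reads fell. Ribosomal RNA genes are present in many near-identical copies, so reads from them are uncertain where the counting could split or drop them.

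**Figure D1:**
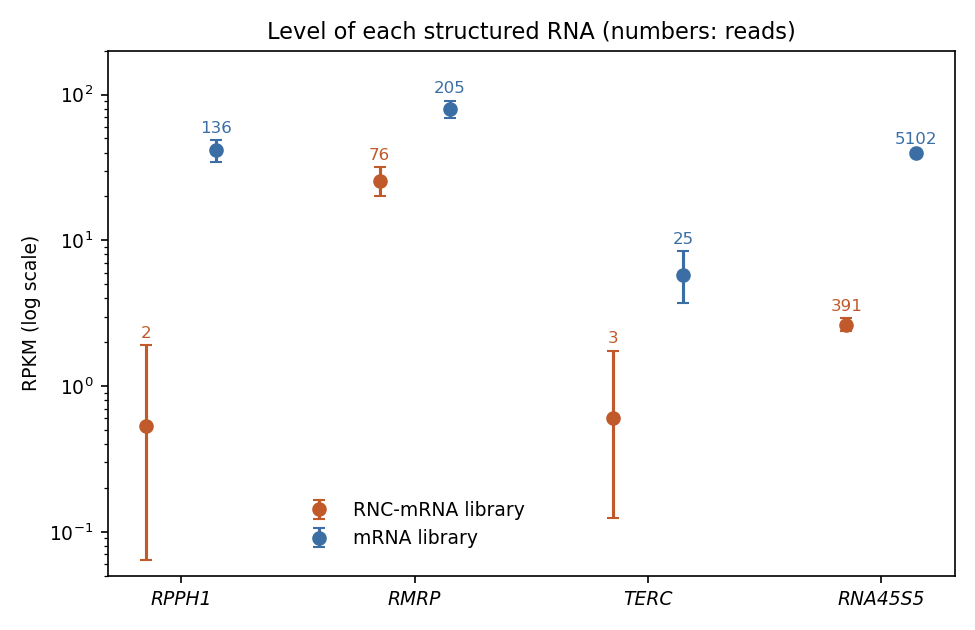
Level of each RNA in RPKM (vertical log axis) in the RNC-mRNA library (left point of each pair) and the mRNA library (right point), with exact 95% Poisson intervals that cover counting error only; the numbers are reads. All 4 RNAs sit lower in the RNC-mRNA library, and RPPH1 and TERC rest on 2 and 3 reads there.

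Only RPPH1 changed its place relative to the others between the libraries, and no pair changed order beyond counting error in both. In the RNC-mRNA library, RMRP was highest at 25.6 RPKM (Poisson interval 20.2 to 32.0), followed by RNA45S5 at 2.64 RPKM (2.39 to 2.92), TERC at 0.600 RPKM (0.124 to 1.75) and RPPH1 at 0.529 RPKM (0.0641 to 1.91). TERC and RPPH1 did not differ there beyond counting error. In the mRNA library, RMRP led with 79.3 RPKM (68.9 to 91.0), then RPPH1 with 41.4 RPKM (34.7 to 48.9), RNA45S5 with 39.6 RPKM (38.5 to 40.7) and TERC with 5.75 RPKM (3.72 to 8.49). RPPH1 and RNA45S5 did not differ there beyond counting error. The intervals of their relative ratios, -9.31 to -4.37 for RPPH1 and -4.02 to -3.72 for RNA45S5, did not overlap.

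Low ratios were common among short non-coding records, and most of those rested on few reads. Of 201 expressed NR records shorter than 500 bases, 65.7% lay at least 2-fold below the median, but for 6.97% the whole counting interval lay beyond that size. Among all 1462 expressed NR records, these shares were 35.3% and 15.1%, and among all expressed records they were 11.8% and 5.87%. Reads are the fewest that explain both values, so intervals can be too wide and the shares with whole intervals too low. For each of the 4 RNAs the whole interval lay beyond 2-fold. They were chosen with these values in view and are counted in the shares of their classes, so nothing further is read from this. The 660 expressed protein-coding (NM) records under 1000 bases had a median of 0.01. Of these, 71 (10.8%) lay at least 2-fold below, and for 26 the whole interval lay beyond that size. The 388 expressed records of 10000 to 17000 bases, a class set beside RNA45S5 after the values were seen, had a median of -0.12. The lowest of those was ASMTL-AS1 at -3.50, above RNA45S5. Its length is uncertain. Its fewest reads, 10 in the RNC-mRNA library and 125 in the mRNA library, fit a record shorter than the 13914 bases that placed it there. Lengths in these classes fit both values and lie nearest an annotated length where one was known, so some may be multiples of the true length.

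**Figure D2:**
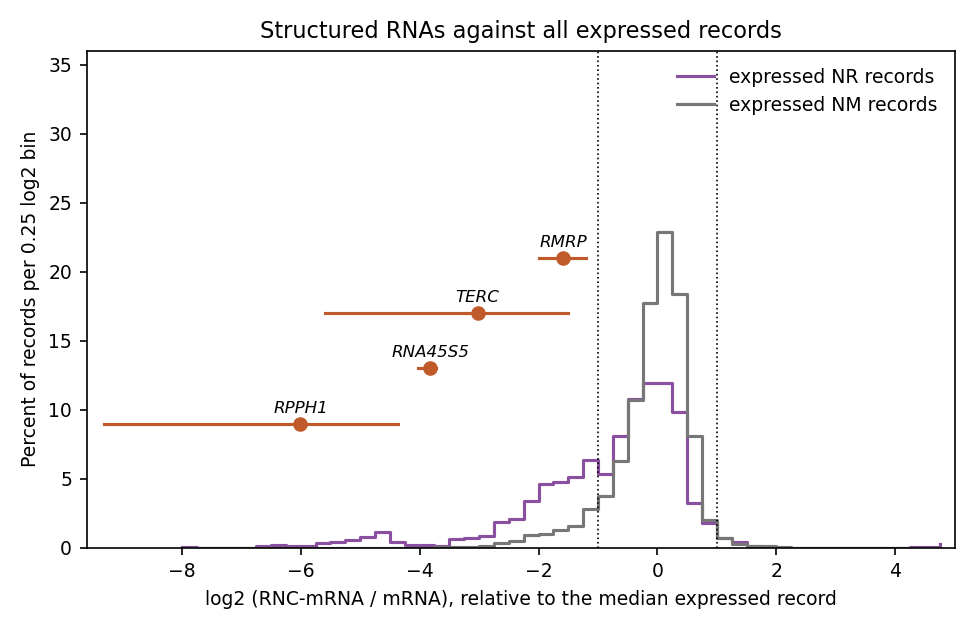
Share of expressed records (vertical axis, percent per log2 bin) by relative log2 ratio of RNC-mRNA over mRNA (horizontal axis), for NR and NM records, with the 4 RNAs as points and their exact 95% counting intervals as bars at arbitrary heights; dotted lines mark 2-fold. The intervals come from the reads without the pseudocount, so a point need not be at the centre of its bar, and all 4 bars lie left of the lower 2-fold line.

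The other ribosomal RNA record with a value was less low than the precursor. RNA5-8S5, a mature RNA of the large ribosomal subunit that is cut out of the same precursor, had 118 RPKM in the RNC-mRNA library and 261 RPKM in the mRNA library. Its relative ratio was -1.10 (counting interval -1.62 to -0.60, on at least 51 reads in the RNC-mRNA library and 98 in the mRNA library). This interval did not overlap that of RNA45S5. Reads from this stretch match both records, and their assignment is not described in the sources used here.

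TERC is also listed among small Cajal body RNAs, a class of guide RNAs for spliceosomal RNAs. Of 24 other SCARNA records, 12 passed the filter on low values, most of them only through the mRNA library, so their direction was largely fixed by the filter. All 12 lay at least 2-fold below the median, as did 65.7% of the expressed NR records under 500 bases, and for 4 the whole interval lay beyond 2-fold. Their median was -3.37, and -2.44 with records listed at 0 set to a floor of 3 reads. SCARNA9, the most abundant, had 4.35 RPKM in the RNC-mRNA library and 106 RPKM in the mRNA library (-4.54). SCARNA16 stood at 0 in the RNC-mRNA library and had 8.88 RPKM in the mRNA library, at least 6.13-fold lower with the floor of 3 reads. SCARNA9L and SCARNA20 were also listed at 0 in the RNC-mRNA library. Their recovered reads in the mRNA library, at least 1 and 2, are lower limits set by 1 value alone, so no fold is given. SCARNA4 was the highest at -1.06 (counting interval -7.05 to 3.10), on at least 1 read in the RNC-mRNA library and 2 in the mRNA library.

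Small nucleolar RNAs, which guide chemical changes of ribosomal RNA, had 66 of 99 expressed records (66.7%) at least 2-fold below, a share near the 65.7% of expressed NR records under 500 bases, and for 2 records the whole interval lay beyond that size. Their median was -1.61, and the same filter applies. With the 31 records listed at 0 in the RNC-mRNA library and the 1 listed at 0 in the mRNA library set to the floor, that median was -0.55, so it depends on records with few reads. SNORA40, the most abundant, had 9.24 RPKM in the RNC-mRNA library and 29.4 RPKM in the mRNA library (-1.62). SNORA12 stood at 0 in the RNC-mRNA library and had 24.0 RPKM in the mRNA library, at least 13.0-fold lower at the floor. The highest member, SNORD116-14, rested on 3 reads in the RNC-mRNA library and stood at 0 in the mRNA library, so no fold is given.

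Among other small structured RNAs (spliceosomal, Y, vault and primate-specific RNAs), 9 of 65 were expressed and 47 were listed at 0 in both libraries. The median of the 9 was -1.63, and -0.16 at the floor. RNY4, a Y RNA, had 10.6 RPKM in the RNC-mRNA library and 27.5 RPKM in the mRNA library (-1.32, interval -3.48 to 0.51). RNU6ATAC, VTRNA1-3 and RNY5 stood at 0 in the RNC-mRNA library. Their recovered reads in the mRNA library were at least 3, 1 and 1, so no fold is given. BCYRN1, a neuronal RNA related to the Alu part of SRP RNA and named here after its values were seen, had 2.83 RPKM in the RNC-mRNA library and 9.23 RPKM in the mRNA library (-1.63, interval -3.30 to -0.26). None of the 9 had the whole interval beyond 2-fold, so at this depth a difference of that size was not detectable for them.

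The mRNAs for the proteins of these particles lay near the median of all expressed records, in contrast to the RNAs. All 11 proteins of ribonuclease P and MRP were expressed, with a median relative ratio of 0.30 and none at least 2-fold from the median in either direction, where 11.8% of all expressed records lay that far below and 1.37% that far above. POP7, the most abundant, had 66.4 RPKM in the RNC-mRNA library and 55.4 RPKM in the mRNA library (0.30). RPP25 was the highest at 0.58 and RPP30, a subunit of the protein core, the lowest at -0.14 (interval -0.37 to 0.09).

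The telomerase particle had 9 of 9 members expressed, with a median of 0.14 and none beyond 2-fold. TERT, the reverse transcriptase, was its lowest member, with 0.967 RPKM in the RNC-mRNA library and 1.47 RPKM in the mRNA library (-0.52, interval -1.18 to 0.03). The interval of TERT did not overlap that of TERC, -5.59 to -1.51. NOP10, an H/ACA protein that binds TERC, had 151 RPKM in the RNC-mRNA library and 123 RPKM in the mRNA library (0.34), and NHP2, another H/ACA protein, was highest (0.53).

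Of the particles whose RNAs are not analysed here, the SRP and its receptor had a median of 0.32 over 8 members, with 6 above the median record. SRP14, which binds the Alu part of the SRP RNA, had 158 RPKM in the RNC-mRNA library and 150 RPKM in the mRNA library (0.12). SRP72 was the highest (0.50) and SRP68 the lowest (-0.08). The 7SK particle and the elongation factor it holds, P-TEFb, had a median of 0.30 over 7 members. MEPCE, which caps the 7SK RNA, was the highest (0.54), with 37.3 RPKM in the RNC-mRNA library and 26.4 RPKM in the mRNA library. LARP7, which binds the 3′ end of the 7SK RNA, was the lowest, with 5.05 RPKM in the RNC-mRNA library and 8.96 RPKM in the mRNA library. Its ratio was -0.78 (interval -1.45 to -0.15, on at least 35 reads in the RNC-mRNA library and 54 in the mRNA library).

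**Figure D3:**
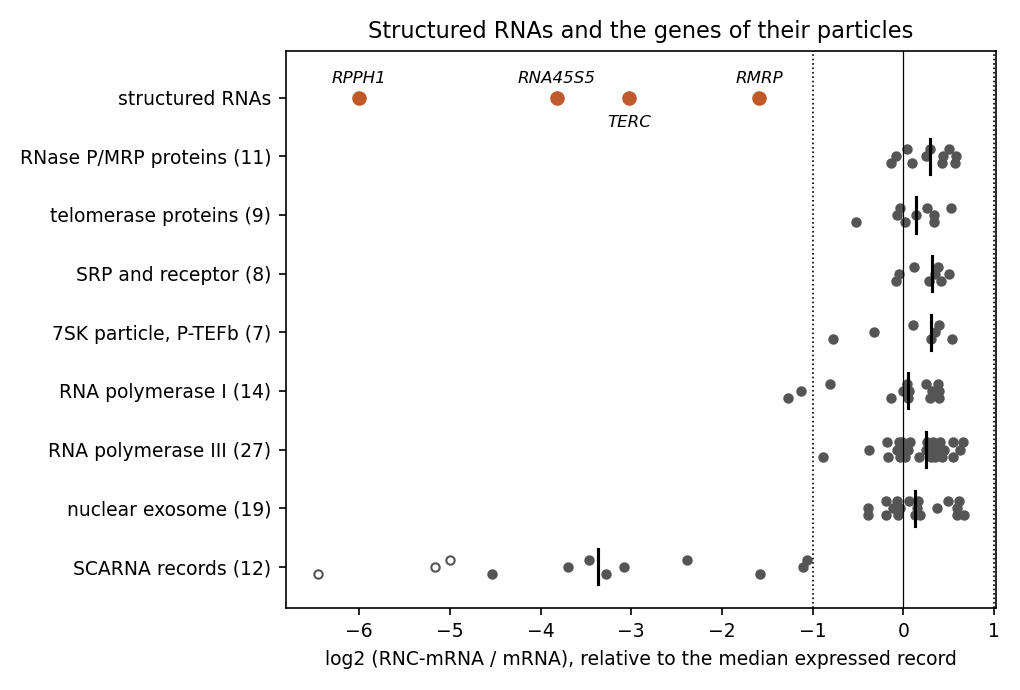
Relative log2 ratio of RNC-mRNA over mRNA (horizontal axis) for the 4 RNAs, for expressed genes of 7 lists of proteins and for the SCARNA records (numbers of genes in parentheses); vertical bars are list medians, open circles are records listed at 0 in the RNC-mRNA library and dotted lines mark 2-fold. The protein lists have medians between 0.05 and 0.32, and the 4 RNAs sit between -6.004 and -1.59.

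RNA polymerases I and III, which make 3 of the 4 RNAs, had list medians near that of all expressed records. RNA polymerase III and its factors had a median of 0.25 over 27 expressed members of 28, none beyond 2-fold. GTF3A was the most abundant, with 77.4 RPKM in the RNC-mRNA library and 64.6 RPKM in the mRNA library (0.30), POLR3C the highest (0.65) and SNAPC4, a subunit of the complex that starts transcription of RPPH1 and RMRP, the lowest (-0.88). RNA polymerase I and its factors had a median of 0.05 over 14 members. Of these, 2 (14.3%, against 11.8% of all expressed records) lay at least 2-fold below, TAF1C with 9.72 RPKM in the RNC-mRNA library and 24.3 RPKM in the mRNA library (-1.28, interval -1.45 to -1.12) and TAF1A (-1.13, interval -1.87 to -0.48), both subunits of the promoter factor SL1. The other SL1 subunits in the list, TAF1B (0.30) and TAF1D (0.05), named here after their values were seen, did not share this. POLR1D, the most abundant, was at -0.13 and POLR1A, the largest subunit, was highest (0.40).

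The nuclear exosome and the enzymes that tag its targets with short A tails had a median of 0.13 over 19 members and none beyond 2-fold. EXOSC8 was the most abundant, with 37.9 RPKM in the RNC-mRNA library and 34.8 RPKM in the mRNA library (0.16). EXOSC5 was the highest (0.67) and PAPD7, a non-canonical poly(A) polymerase, the lowest (-0.39). How much of each of the 4 RNAs carried an A tail was not measured, and the part of poly(A) selection in their low ratios was not tested.

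The protein-coding genes that lie next to these RNAs did not share their low ratios. PARP2, a DNA repair enzyme, lies 175 bases from RPPH1 on the other strand in GENCODE release 29. It had 19.3 RPKM in the RNC-mRNA library and 21.6 RPKM in the mRNA library (-0.12, interval -0.33 to 0.08). CCDC107 lies 272 bases from RMRP, also on the other strand, and had 6.10 RPKM in the RNC-mRNA library and 6.68 RPKM in the mRNA library (-0.09, interval -0.55 to 0.36). Neither interval overlapped that of its RNA neighbour. ACTRT3, the nearest to TERC at 1861 bases, was under 1 RPKM in both libraries and is not compared.

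The records most like each of the 4 RNAs were found by distance in log2 RPKM over the 2 libraries, which only reflects level and ratio. For RPPH1 these were MIR663A (distance 0.77), LINC00685 (1.17) and MIR5047 (1.65), all non-coding and all farther away than the nearest records of the other 3 RNAs. For RMRP they were the protein-coding genes ORC4 (0.10), ALPPL2 (0.12) and ACADVL (0.16). TERC lay closest to UPK1A-AS1 (0.12), SNORA4 (0.14) and MST1L (0.15). MIR663A, MIR5047 and SNORA4 rested on as few as 1 read each in the RNC-mRNA library, and RPPH1 and TERC on 2 and 3. The order of the records nearest to RPPH1 and TERC is therefore uncertain. Among the records closest to RNA45S5 were PI4KAP1 (0.66) and TNNT3 (0.67). No strand-preserving step is named in the labels, so reads of UPK1A-AS1, an antisense RNA, may come from its sense partner, and those of MST1L, PI4KAP1 and ALPPL2, which have close copies, are uncertain.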

How the data were processed

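The deposited table gives RPKM per gene symbol, each paired with 1 RefSeq record, for both libraries, computed by the authors per the file headers. The genome build was hg19, per the submitters' processing notes; mapping and counting software, and the handling of reads that match several records, are not given in the sources used here. The labels name no strand-preserving step and no molecular identifiers, so intervals and floors cover counting error only.

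Each library total is the integer for which the most RPKM values became whole reads for GENCODE release 29 transcript lengths, within rounding at 7 digits: 2346 records against 1656 at the next best total in the RNC-mRNA library, and 2594 against 1753 in the mRNA library. The reads of a record are the fewest that explain both values (relative tolerance 2e-07 beyond rounding). With correct totals they are a lower limit, so intervals built on them can be too wide. On a simulated pair of libraries these reads equalled the true reads for 83.2% of 1200 records checked, all with reads in both libraries. That they were at or under the true reads for 1200 of 1200 follows from the rule and is no check. Records listed at 0 in 1 library were not checked, and there 1 value alone sets the reads. Python 3.11.15 and scipy 1.17.1 were used.

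Ratios used a pseudocount of 0.1 RPKM, which understates the change of low records, and a mean of at least 1 RPKM; a 2-fold size stands in for a test, and no p-value is given. The RNAs, the lists, the alternatives and the rule for named genes were chosen with earlier results of these data known. The rule takes all of these RNAs, their 3 nearest records, and per list the most abundant, highest and lowest members and up to 4 beyond 2-fold; of the broad NR and NM classes mostly counts and medians are given. A record that this rule selects is not reported here.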

Additional observations from a re-analysis of the deposited data

How the results depend on the processing

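No paired analysis was possible because each kind of RNA has 1 library. Across all alternatives RPPH1 stayed between -6.25 and -4.76, RMRP between -1.67 and -1.49, TERC between -3.22 and -2.04 and RNA45S5 between -3.90 and -3.45. All RNAs that an alternative kept lay at least 2-fold below the median: 4 of 4, except 3 of 3 with a mean of at least 5 RPKM, which drops TERC, and 2 of 2 with at least 10 reads in each library, which drops RPPH1 and TERC. RNA45S5 moved past its counting interval with a pseudocount of 1 (-3.45) and with no filter (-3.72). The count of all expressed records at least 2-fold below the median, 1576, was 1046 with a pseudocount of 1, 544 with a mean of at least 5 RPKM and 3040 with no filter. The median of all NR records was -0.37 with a pseudocount of 1, -0.19 with a mean of at least 5 RPKM, -0.62 with no filter and -0.40 with at least 10 reads. For NR records under 500 bases it was -1.09 with a pseudocount of 1, -2.52 with no filter and -0.61 with at least 10 reads, and for small nucleolar RNAs -1.09 with a pseudocount of 1 and -2.49 with no filter. For SCARNA records it was -1.98 with a pseudocount of 1, and for other small structured RNAs -3.11 with no filter. The median of NM records was 0 when centred on itself, -0.0071 with equal sums, -0.0065 with no centring, 0.0083 with a mean of at least 5 RPKM and 0.052 with no filter. In all, 165 values, medians of the protein lists among them, stayed within their intervals or within 1.5 times of their counts. They include the values above for SCARNA records, for other small structured RNAs and for small nucleolar RNAs with no filter. Counting RN7SL1 and RN7SL2 as 1 was not run, since they are not analysed here. In the RNC-mRNA library, 2 and 3 reads limit RPPH1 and TERC.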
